A study of Mus musculus with 8 samples.

Results

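The glutamate transporter genes described here are the 3 vesicular carriers Slc17a6, Slc17a7 and Slc17a8 and 5 plasma membrane carriers of the Slc1 family, Slc1a1 to Slc1a5. They were chosen by symbol, through the RefSeq accessions that the array gives for its probes, and are 8 of 20283 named genes. They are covered by 12 of 39429 gene probes. RNA came from the neocortex of ICR mice at embryonic day 16, from which the germinal layers, that is the ventricular zone with the subventricular zone (V/SVZ, 4 samples), and the cortical plate (CP, 4 samples) were cut out manually. The V/SVZ lines the ventricle and holds radial glia and intermediate progenitors, and the CP is where newborn projection neurons settle. No genetic change and no treatment is given for either group. Each sample was labelled with Cy3 and hybridised to a 1-colour Agilent array of its own. Separate animals are not stated for the 4 samples of a tissue, and p-values here rest on a spread between samples that may be technical only.

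Glutamate is the main excitatory transmitter of the cortex. Vesicular glutamate transporters load it into synaptic vesicles, driven by the proton gradient that the vacuolar proton pump makes, and the excitatory amino acid transporters take it up from the extracellular space, driven by the sodium gradient. In the mature brain, VGLUT1 (Slc17a7) is the carrier of most cortical excitatory terminals and VGLUT2 (Slc17a6) that of most thalamic and other subcortical ones, while VGLUT3 (Slc17a8) is found in scattered neurons, many of which use another transmitter. GLAST (Slc1a3) is a marker of radial glia and astrocytes, GLT-1 (Slc1a2) carries most uptake into mature astrocytes, and EAAC1 (Slc1a1) is neuronal. ASCT1 (Slc1a4) and ASCT2 (Slc1a5) belong to the same family by sequence but exchange neutral amino acids, ASCT2 with glutamine among its main substrates.

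The arrays were even in quality. On each array 58.4% to 62.9% of gene probes exceeded background clearly. Across probes, V/SVZ arrays correlated at 0.992 to 0.995 with each other, CP arrays at 0.996 to 0.997, and arrays of different tissues at 0.879 to 0.895 (probes are not independent replicates). The labels fitted the markers of their tissues: 8 of 9 radial glia markers and 6 of 6 intermediate progenitor markers were higher in V/SVZ, and 9 of 9 projection neuron markers were higher in CP. The V/SVZ arrays shared slide 1 and the CP arrays slide 2, so slide and tissue cannot be told apart in any difference given here. RNA was measured in whole tissue, in which fewer cells of a type and less RNA per cell cannot be told apart either.

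All 8 genes differed between the tissues, and they divided within both families. Slc17a6, Slc17a8, Slc1a2, Slc1a3 and Slc1a5 were higher in V/SVZ, and Slc17a7, Slc1a1 and Slc1a4 were higher in CP. Testing required a signal well above background on all 4 arrays of either tissue, and a probe was called at an adjusted p under 0.05 in limma's fit over all 23858 tested probes, with Benjamini-Hochberg adjustment. Of the 12 probes, 9 were tested, all of them well above background on all 8 arrays, and 9 of 9 were called, 6 with V/SVZ higher and 3 with CP higher. Calls were common on these arrays: 79.7% of all tested probes were called, 35.3% as higher in V/SVZ and 44.4% as higher in CP. Of these calls 44.2% had V/SVZ higher, and 58.7% did with no scaling between arrays. The 4 arrays of one tissue lay above the 4 of the other in 9 of 9 tested probes of these genes, against 75.5% of all tested probes. At 2-fold or more, 8 of the 9 were called, against 30.2% of all tested probes. This count depends on the background treatment: after normexp background correction Slc1a2 was 1.48-fold and the dimmer Slc1a5 probe 1.71-fold. Slc1a5 enters with both of its probes, and the genes were chosen with earlier results of these data known. The median absolute log2 difference was 1.87 over the 9 probes and 0.55 over all tested probes. Levels are given below as scaled signal in intensity units, which compares samples for 1 probe and does not compare 1 probe with another.

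**Figure D1:**
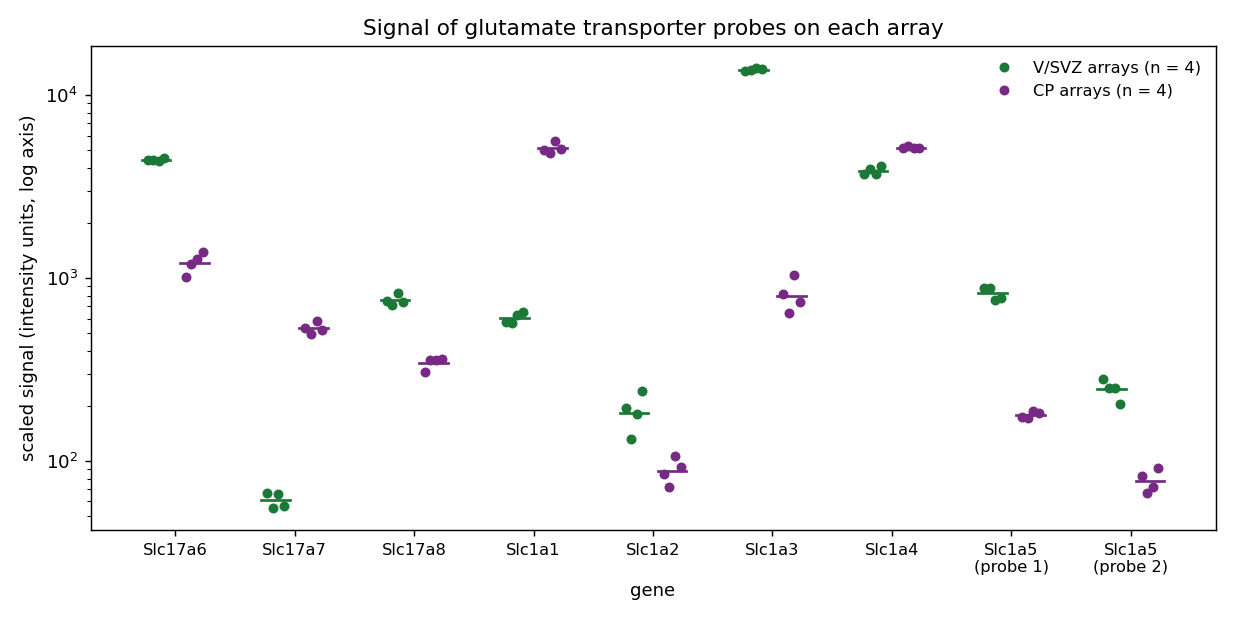
Scaled signal (intensity units, log axis) of the 9 tested probes on each array, with V/SVZ arrays in green and CP arrays in purple (points, n = 4 each) and the geometric mean of each group (line). The groups do not overlap for any of the 9 probes, and Slc17a7, Slc1a1 and Slc1a4 are the genes whose CP arrays lie higher.

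For the genes with the largest opposed differences in each family, the 250 bases before the annotated start are shown on the strand of the gene, 5′ to 3′, from RefSeq (GRCm38.p6). They are chr7:51621580-51621829 (+) for Slc17a6, chr7:45163671-45163920 (+) for Slc17a7, chr15:8710808-8711057 (-) for Slc1a3 and chr19:28834885-28835134 (+) for Slc1a1. Capitals mark CAGNTG on either strand, an E-box of the kind that proneural basic helix-loop-helix factors bind.
Slc17a6: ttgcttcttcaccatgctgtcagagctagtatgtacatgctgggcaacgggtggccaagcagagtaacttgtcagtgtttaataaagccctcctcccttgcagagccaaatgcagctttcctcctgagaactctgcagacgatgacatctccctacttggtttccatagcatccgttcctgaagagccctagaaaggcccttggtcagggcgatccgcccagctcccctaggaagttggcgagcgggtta
Slc17a7: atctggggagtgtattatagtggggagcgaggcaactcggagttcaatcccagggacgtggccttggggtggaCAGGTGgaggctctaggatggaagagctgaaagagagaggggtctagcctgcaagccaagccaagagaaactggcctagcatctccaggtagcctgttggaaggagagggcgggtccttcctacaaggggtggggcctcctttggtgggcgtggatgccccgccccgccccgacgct
Slc1a3: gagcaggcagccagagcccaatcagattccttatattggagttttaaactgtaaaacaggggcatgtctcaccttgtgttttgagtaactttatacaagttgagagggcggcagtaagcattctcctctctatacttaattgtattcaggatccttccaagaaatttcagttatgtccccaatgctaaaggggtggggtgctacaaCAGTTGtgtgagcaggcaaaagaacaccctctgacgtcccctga
Slc1a1: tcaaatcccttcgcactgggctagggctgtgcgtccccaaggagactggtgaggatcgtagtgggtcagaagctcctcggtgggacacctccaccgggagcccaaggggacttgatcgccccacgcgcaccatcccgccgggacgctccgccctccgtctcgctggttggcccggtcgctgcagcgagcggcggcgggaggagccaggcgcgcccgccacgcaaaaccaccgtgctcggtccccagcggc
The E-box letters were found once in the Slc17a7 window, 177 bases before the start, and once in the Slc1a3 window, 44 bases before the start, and not in the windows of Slc17a6 and Slc1a1. A second annotated start of Slc17a6, at chr7:51624387-51624636, had 1 match. Over the 9 windows available for 7 of the 8 genes (none for Slc1a5), 6 held a match, against 44.8% of 32851 windows of the same length over all genes. GC content was 53.2% for Slc17a6, 61.2% for Slc17a7, 44.8% for Slc1a3 and 70.4% for Slc1a1, around a median of 52.4% over all windows. The Slc1a1 window held 27 CpG dinucleotides and the Slc1a3 window 2, with a median of 6 over all windows. GGGCGG, the GC box, was found on either strand in 5 of the 9 windows and in 32.7% of all windows. TATAAA, the TATA box, was found on either strand in 1 of the 9, that of Slc1a3, and in 12.4% of all windows. In the Slc1a3 window it lies on the strand opposite to the gene, as TTTATA in the letters shown. TGGGAA, the core letters bound by the Notch effector Rbpj, was found on either strand in 1 of the 9, that of Slc1a4, and in 21.6% of all windows. The search found matching letters only, and no binding was measured.

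Among the vesicular carriers, Slc17a6 had the largest excess in the germinal zones. It had 4417, 4395, 4363 and 4527 units in V/SVZ samples 1 to 4, against 1017, 1195, 1268 and 1380 units in CP samples 1 to 4. The V/SVZ samples were nearly identical and all lay above the CP samples, which spread more. V/SVZ exceeded CP by 1.87 ± 0.09 (log2, SE, n = 4 per tissue, limma adjusted p = 2.49e-07), a 3.66-fold higher level in V/SVZ. Its log2 SD was 0.023 in V/SVZ and 0.186 in CP. Slc17a6 was still well above background on every CP array.

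Slc17a7, the carrier of mature cortical terminals, ran the opposite way. It had 66.5, 55.2, 65.5 and 56.6 units in V/SVZ samples, against 535, 494, 583 and 520.1 units in CP samples. All CP samples were far above all V/SVZ samples. The difference, V/SVZ minus CP, was -3.13 ± 0.08 (log2, SE, n = 4 per tissue, limma adjusted p = 8.31e-09), 8.76-fold higher in CP. The V/SVZ signal was low, and after normexp background correction the difference was -2.30, or 4.93-fold. Of all tested probes, 6.05% had a larger absolute difference.

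Slc17a8 was measured by 2 probes, of which 1 was above background. That probe had 747, 713, 826 and 736 units in V/SVZ samples, against 305, 356, 355 and 361 units in CP samples. Every V/SVZ sample lay above every CP sample, and CP sample 1 was the lowest of all. The log2 difference was 1.13 ± 0.07 (SE, n = 4 per tissue, limma adjusted p = 1.44e-06), 2.20-fold higher in V/SVZ. The other probe was not well above background on any of the 8 arrays (5.11 to 23.4 units in V/SVZ, 8.29 to 10.0 units in CP) and was not tested.

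Whether these differences differ from each other was tested within arrays, where the log2 signal of 1 probe minus that of another is free of the scaling between arrays. In all, 14 pairs were compared: 3 within the vesicular family, 10 within the Slc1 family and the 2 tested probes of Slc1a5. The test was a two-sided exact permutation test of 4 against 4 arrays, whose smallest p is 0.0286, and all 14 pairs reached it (Benjamini-Hochberg adjusted p = 0.0286, exact). Pairs of a probe higher in V/SVZ with a probe higher in CP had to reach it, since neither probe's groups overlapped. For those pairs the outcome was fixed in advance. It was open only for pairs of the same direction. These were Slc17a6 with Slc17a8, Slc1a1 with Slc1a4, the 2 Slc1a5 probes, and Slc1a2, Slc1a3 and Slc1a5 with each other. The share of other probe pairs that would reach it was not computed, so the count is not particular to these genes. Of all single tested probes, 75.5% had the 4 arrays of one tissue above the 4 of the other. The permutation of 4 against 4 arrays does not use the pairing of same-numbered arrays. With labels swapped only within the 4 pairs of arrays, 16 arrangements exist and the smallest exact p is 0.125, so no contrast could pass the threshold, and all 14 had p = 0.125, each with its direction in 4 of 4 pairs. The contrast of Slc17a6 with Slc17a7 averaged 6.19 ± 0.15 in V/SVZ and 1.18 ± 0.21 in CP (log2, SD, n = 4 each), a 32.1-fold change in the ratio of the 2 transcripts. The contrast of Slc17a7 with Slc17a8 averaged -3.63 ± 0.10 in V/SVZ and 0.63 ± 0.16 in CP (log2, SD, n = 4 each). Slc17a6 and Slc17a8, both higher in V/SVZ, differed least of the 3 vesicular pairs, with a change of 0.74 in their contrast, so the V/SVZ excess of Slc17a6 was the larger.

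**Figure D2:**
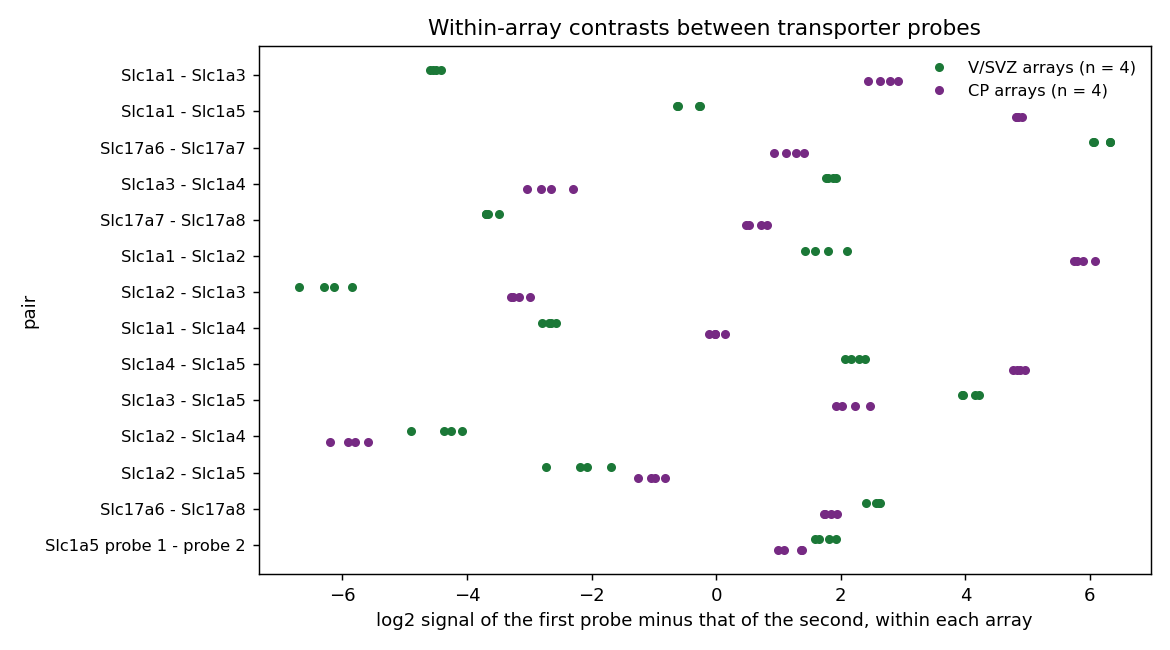
Log2 signal of one probe minus that of another within each array, for the 14 pairs compared, with V/SVZ arrays in green above CP arrays in purple (points, n = 4 each). The groups do not overlap in any pair, and the widest gap, between Slc1a1 and Slc1a3, is -7.21 (V/SVZ minus CP, log2). Pairs of probes with opposed directions could not overlap, since the groups of neither probe do. The share of other probe pairs without overlap was not computed.

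Among the plasma membrane carriers, Slc1a3 had the largest difference. GLAST had 13551, 13643, 14082 and 13933 units in V/SVZ samples, against 814, 644, 1040 and 734 units in CP samples. The V/SVZ samples were close together, and every CP sample was far lower. V/SVZ exceeded CP by 4.12 ± 0.13 (log2, SE, n = 4 per tissue, limma adjusted p = 2.81e-08), 17.3-fold higher in V/SVZ, and 2.90% of tested probes had a larger absolute difference. Its log2 SD was 0.026 in V/SVZ, lower than that of all but 3.29% of tested probes, and 0.292 in CP, higher than that of 91.7% of them.

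Slc1a3 and Slc1a2 shared their highest and lowest CP samples. On the log2 scale, CP samples 1 to 4 deviated from the CP mean of Slc1a3 by 0.03, -0.30, 0.39 and -0.12, and from that of Slc1a2 by -0.05, -0.29, 0.27 and 0.07. Over 6 tested astrocyte markers, which do not include the transporters, the median deviations were -0.06, -0.20, 0.30 and -0.02, and over 9 radial glia markers they were -0.05, -0.15, 0.12 and 0.01. CP sample 2 was thus the lowest and CP sample 3 the highest for both transporters and both lists, while the other CP samples did not keep one order. A low CP sample 2 and a high CP sample 3 were not limited to glial genes. Intermediate progenitor markers had median deviations of -0.13 and 0.07 in CP samples 2 and 3, interneuron and ganglionic eminence markers -0.12 and 0.09, microglia markers -0.25 and 0.11, and blood genes -0.11 and 0.06. Slc1a1 deviated by -0.09 and 0.13 in these samples, and Slc17a7 by -0.11 and 0.13. Not every list kept this order. Oligodendrocyte lineage markers had 0.169 and -0.109 in CP samples 2 and 3, and thalamic and other subcortical neuron markers -0.003 and -0.155. CP sample 1 was the highest for intermediate progenitor markers (0.098), and CP sample 4 for microglia markers (0.175). The part of any of these cells in the CP level of a transporter was not tested, and 4 samples are too few for a correlation.

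Slc1a2, the main glial uptake carrier of the mature cortex, was dim in both tissues. Its brightest probe had 193, 132, 180.1 and 242 units in V/SVZ samples, against 84.6, 71.7, 106 and 92.2 units in CP samples. The groups did not overlap, but V/SVZ sample 2 came close to the highest CP sample. The log2 difference was 1.06 ± 0.19 (SE, n = 4 per tissue, limma adjusted p = 0.00115), 2.08-fold higher in V/SVZ, with a 95% interval from 0.61 to 1.51. After normexp it was 0.57, or 1.48-fold. A second probe had 11.1 to 17.9 units in V/SVZ and 22.5 to 68.3 units in CP, and was well above background on 1 CP array. The dimmest had 13.1 to 26.0 units in V/SVZ and 9.51 to 12.4 units in CP and passed the background criterion on no array. Neither was tested, and with no filter on dim probes the second was called higher in CP (log2 difference -1.22 ± 0.37 SE, limma adjusted p = 0.0250), so the direction of Slc1a2 rests on 1 of its 3 probes.

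Slc1a1, the neuronal carrier, had the largest difference towards CP within its family. It is the 1 gene here with 10 spots on each array. It had 577, 567, 625 and 652 units in V/SVZ samples, against 5031, 4845, 5631 and 5093 units in CP samples. The groups were far apart, with little spread in either. The log2 difference was -3.09 ± 0.06 (SE, n = 4 per tissue, limma adjusted p = 2.94e-09), 8.51-fold higher in CP. Its contrast with Slc1a3 within arrays averaged -4.51 ± 0.07 in V/SVZ and 2.69 ± 0.21 in CP (log2, SD, n = 4 each), a 148-fold change in the ratio of these transcripts and the widest of the 14 pairs.

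The neutral amino acid exchangers differed in direction. Slc1a4 had 3706, 3934, 3710 and 4090 units in V/SVZ samples, against 5107, 5275, 5115 and 5158 units in CP samples. The CP samples were tightly grouped above the V/SVZ samples. The log2 difference was -0.42 ± 0.04 (SE, n = 4 per tissue, limma adjusted p = 2.90e-05), 1.34-fold higher in CP. This is a small difference on these arrays: 58.8% of tested probes had a larger absolute one, and the bright spike-in controls of the arrays differed between the tissues by up to 0.16 (log2).

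Slc1a5 was higher in V/SVZ by both of its probes. The brighter probe had 884, 879, 756 and 779 units in V/SVZ samples, against 174, 171, 187 and 182 units in CP samples. Every V/SVZ sample was well above every CP sample. The log2 difference was 2.21 ± 0.06 (SE, n = 4 per tissue, limma adjusted p = 1.63e-08), 4.61-fold higher in V/SVZ. The dimmer probe had 281, 252, 251 and 206 units in V/SVZ samples, against 82.1, 66.7, 72.1 and 91.4 units in CP samples. Its log2 difference was 1.66 ± 0.12 (SE, n = 4 per tissue, limma adjusted p = 4.77e-06), or 3.17-fold, and 0.77 (1.71-fold) after normexp. The 2 probes thus shared their direction and differed in size, by 0.54 on the log2 scale within arrays (1.74 ± 0.15 in V/SVZ and 1.20 ± 0.19 in CP, SD, n = 4 each). Within arrays, Slc1a4 and Slc1a5 had a change in their contrast of -2.63 (log2), or 6.17-fold, and of -1.99 (log2) after normexp.

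**Figure D3:**
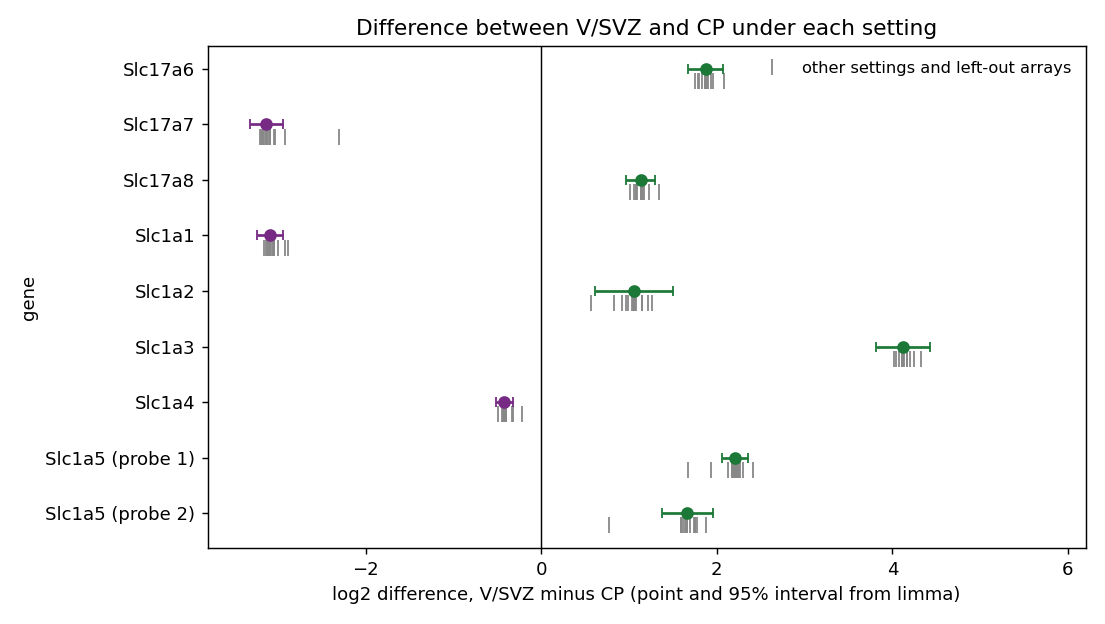
Log2 difference (V/SVZ minus CP) of the 9 tested probes with limma's 95% interval (points and bars, green where higher in V/SVZ and purple where higher in CP), and the value under each other setting and with each array left out (grey ticks). No tick crosses 0, and the ticks farthest from their point are the normexp values of Slc17a7 (-2.30) and of Slc1a5 probe 2 (0.77).

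The genes with the profile most like that of each transporter were found over the 8 arrays, among genes with a symbol at their brightest tested probe, as those with the smallest root mean square distance between log2 profiles centred on their own means. With 2 tissues, such likeness mostly reflects the size of the tissue difference, and it says nothing of shared function. Slc1a3 was nearest to Sox1 (0.087), Smo (0.089) and Rhbdl3 (0.095). Slc17a6 was nearest to Tpm1 (0.068), Tmbim1 (0.075) and Irf2 (0.076), and Slc17a8 to Cntf (0.047), Tcf15 (0.049) and Fcsk (0.050). Slc17a7 was nearest to Car11 (0.087), Zfpm2 (0.090) and Begain (0.095). Begain was also among the nearest to Slc1a1 (0.070), with Rac3 (0.066) and Ptpre (0.079). Slc1a2 was nearest to Chst7 (0.163), Abi3 (0.174) and Myd88 (0.177), Slc1a4 to Rnf187 (0.022), Prep (0.026) and Actr3 (0.026), and Slc1a5 to Ust (0.039), Ppfibp2 (0.048) and Reep4 (0.062).

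The remaining genes of both families that were measurable were higher in CP. Of 8 such genes, 3 were tested and 3 were called higher in CP. They were Slc1a6 (EAAT4), a glutamate transporter best known from Purkinje cells (log2 difference -2.59 ± 0.06 SE), the lysosomal sialic acid carrier Slc17a5 (-0.82 ± 0.12 SE, with 1 of its 2 tested probes called) and Slc1a7 (EAAT5), best known from the retina (-0.70 ± 0.15 SE). Slc1a6 had 303 to 352 units in V/SVZ and 1815 to 1986 units in CP. Slc1a7 was dim in both tissues, with 44.3 to 60.2 units in V/SVZ and 68.6 to 103 units in CP. Slc17a2, Slc17a3 and Slc17a4 were not well above background on any array, and Slc17a1 and Slc17a9 were so on 2 arrays each. Over all named genes, 82.1% were called by their brightest tested probe, 38.6% with V/SVZ higher and 43.5% with CP higher, and the lists below are read against these shares and a median log2 difference of -0.05.

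Genes of vesicle loading were mostly higher in CP. Of 18 vacuolar proton pump genes tested, 16 were higher in CP and 2 in V/SVZ, with a median log2 difference of -0.62. The G subunit gene Atp6v1g2 (-1.90) and the membrane subunit gene Atp6v0a1 (-1.08) were higher in CP, and Atp6v0e (1.09) was higher in V/SVZ. With no scaling between arrays, 12 were higher in CP, and Atp6v1f and Atp6v1g1 then had positive differences. Of 7 other vesicular carrier genes tested, 5 were higher in CP and 1 higher in V/SVZ, with a median of -0.84. The vesicle protein gene Sv2b was at least 25.9-fold higher in CP, since it was not well above background on any V/SVZ array, and Sv2a (-2.26) and Svop (-2.10) were higher in CP too. Slc18b1 (0.39, limma adjusted p = 0.0381) was the 1 higher in V/SVZ, and under spike-in scaling 0 were.

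Enzymes of glutamate and glutamine metabolism had calls in both directions. Of 22 tested, V/SVZ was higher for 11 and CP for 9, with a median log2 difference of 0.17. Psat1, which uses glutamate as the amino donor in serine synthesis, was 10.8-fold higher in V/SVZ (3.44 ± 0.06 SE, n = 4 per tissue), with 47347 to 50247 units in V/SVZ and 4096 to 4875 units in CP. Asns, the asparagine synthetase, was 4.68-fold higher in CP (-2.23). Glul, the glutamine synthetase of astrocytes, and Gpt had differences of 0.09 each and were not called (limma adjusted p = 0.489 and 0.392), and were named after their values were seen. The CP count depended on the scaling: 11 against 5 were called with median scaling and 13 against 5 with no scaling between arrays. Got2 and Gclc turned to a positive difference with no scaling, and Glyctk to a negative one after normexp.

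Of 16 glutamine, cystine and neutral amino acid carrier genes tested, V/SVZ was higher for 3 and CP for 10, with a median of -0.21. The neuronal carriers Slc6a15 (-2.90) and Slc6a17 (-2.70) were higher in CP, and Slc38a3 (SNAT3), a glutamine carrier of astrocytes, was 2.87-fold higher in V/SVZ (1.52). With no scaling between arrays V/SVZ was higher for 5 and CP for 6, and Slc38a2 and Slc7a6 turned. The sodium pump list went the other way. Of 6 tested, V/SVZ was higher for 5 and CP for 1, with a median of 0.82. V/SVZ had at least 1.23-fold more Atp1a4 signal, while the beta subunit gene Atp1b1 was 2.29-fold higher in CP (-1.19). The transporter partner list had 13 tested genes, of which 7 were called towards V/SVZ and 6 towards CP (median 0.15). The glial potassium channel gene Kcnj10 (6.39) and the adaptor gene Ajuba (4.72) were higher in V/SVZ, and the endophilin gene Sh3gl2 (-4.36) was higher in CP.

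**Figure D4:**
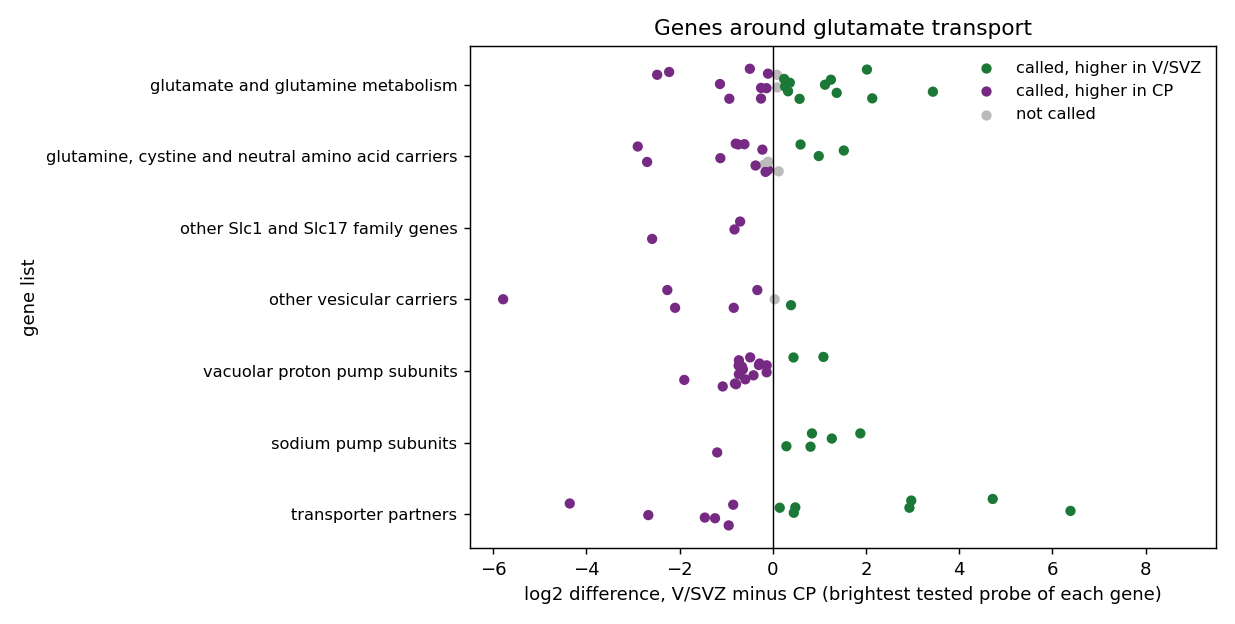
Log2 difference (V/SVZ minus CP) at the brightest tested probe of each gene in the 7 lists around glutamate transport, green where called higher in V/SVZ, purple where called higher in CP and grey where not called. The proton pump genes lie mostly left of 0 (16 of 18 higher in CP), and the partner genes spread widest, from Sh3gl2 (-4.36) to Kcnj10 (6.39).

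Markers of the cells that could carry these transcripts moved between the tissues as well. The summed signal of 9 radial glia markers was 515385 to 541715 units in V/SVZ and 96277 to 100145 units in CP, and that of 8 astrocyte markers 285117 to 292817 units in V/SVZ and 2060 to 2783 units in CP. Of the 6 astrocyte markers tested, 5 were higher in V/SVZ. Aldoc made up most of the V/SVZ sum, and Gfap, the filament of mature astrocytes, was dim in both tissues at its brightest probe (56.2 to 74.3 units in V/SVZ, 52.5 to 68.4 units in CP), which was not called, while 1 of its 2 tested probes was called higher in V/SVZ. Projection neuron markers summed to 198206 to 214517 units in V/SVZ and 650544 to 682197 units in CP. Cajal-Retzius cells, which also carry Slc17a6 RNA, had 9 of 9 markers higher in CP, with sums of 1163 to 1631 units in V/SVZ and 5990 to 6960 units in CP. Of 6 tested genes on the list for thalamic and other subcortical neurons, V/SVZ was higher for 4 and CP for 1. Lhx2 was 1 of the 4, with 100110 to 111570 units in V/SVZ and 36608 to 43364 units in CP. It made up most of the list's summed signal, which was 101827 to 113211 units in V/SVZ and 38131 to 44636 units in CP. Whether such neurons or other cells carried the listed genes was not tested. Prox1 was among the 4, by at least 2.26-fold, with no CP array well above background. Gbx2 was well above background on 1 array and Calb1 on none. Of 9 interneuron and ganglionic eminence markers, V/SVZ was higher for 4 and CP for 5, and Nkx2-1 was too dim on every array to be tested. Microglia markers were higher in V/SVZ in 6 of 8 genes, blood genes in 4 of 5, endothelial and pericyte markers in 3 of 8. Oligodendrocyte lineage markers were divided, with 2 of 7 in each direction, and choroid plexus and meninges markers had 1 of 5 called towards V/SVZ and 2 of 5 towards CP, with Ttr too dim on every array. The part of these cells in the transporter differences was not tested.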

How the data were processed

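The deposited intensity values of the 8 arrays (4 V/SVZ, 4 CP) are processed spot signals from which Agilent Feature Extraction (10.7.1.1, per the file headers) had removed background and spatial trend. A table of log2 values is deposited as well, centred near 0 in each row and with its scaling between arrays not given. Its columns matched the array with their number from the opposite tissue (r of 0.9996 to 0.9998) and not their own (r of -0.943 to -0.953), while the progenitor and neuron markers fitted the scanner files. It served only as an alternative, with columns put on the arrays they follow. No column was left unmapped (0 columns).

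Here, log2 signals were averaged over a probe's spots, outlier spots left out, and the 75th percentile of each array was subtracted. Scaled signal multiplies this back by the geometric mean of those percentiles (2336 units). Probes with values on at least 3 arrays of each tissue and well above background on all 4 of one were tested with lmFit and eBayes (limma 3.58.1, R 4.3.3). Unversioned accessions named 26761 of 39429 gene probes through RefSeq (GRCm38.p6), and the arrays name build mm9, so no probe coordinates are given. Pair contrasts used exact permutation (scipy 1.17.1). "At least" folds compare the mean of the brighter tissue with a floor averaged over the dimmer tissue's arrays, each being the lowest signal well above background there, or the probe's own signal if larger. The procedures were tested on simulated data. Genes named from a list were the 3 largest called differences and the called gene most opposed to the list's majority. The marker lists named at most the gene with the largest difference plus markers not well above background, with Gfap, Aldoc and Lhx2 added after their values were seen. Some genes that this rule selects are not reported here. The members and the 19 gene lists, 7 around glutamate transport and 12 of cell type markers, were chosen with earlier results of these data known. Same-numbered V/SVZ and CP arrays deviated together (correlations of 0.339, 0.311, 0.121 and 0.206 over tested probes), so the numbers were treated as pairing the samples in an alternative fit with the replicate number as a block. The pairing was not clear for V/SVZ sample 3, which correlated more with CP sample 2 (0.17) than with CP sample 3 (0.121). The number of arrays limits the precision.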

Additional observations from a re-analysis of the deposited data

Results flagged for a closer look

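In 2 of the 24 groups of 4 arrays (12 probes in each tissue), 1 array stood apart by Dixon's test, which flags about 1 in 20 groups by chance. For the Slc17a8 probe that was tested, CP sample 1 had 305 units, with the nearest CP sample at 355 units. It lies on the far side from V/SVZ, and without it the log2 difference was 1.08, the lowest value with any 1 array left out, the highest being 1.16. For the dimmest Slc1a2 probe, V/SVZ sample 4 had 26.0 units, with the nearest V/SVZ sample at 14.2 units. All 8 of its spots were too dim to pass the background criterion.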

How the results depend on the processing

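All 9 tested probes of the transporters kept their direction and their call in each setting that measured them (median, quantile, spike-in and no scaling, normexp, both filters, 1 probe or the mean of probes per gene, replicate block, trended variances, array weights and the authors' deposited table) and with each array left out. The deposited table does not list Slc1a2 or the dimmer Slc1a5 probe, and 7 of 7 listed probes were called there. With the replicate number as a block, 19161 probes were called over all, against 19008 without it, and the pairing changed no call of a transporter. With each array left out, 18243 to 19112 probes were called. The exact test of pairs could not be run to significance with an array left out, since 3 against 4 cannot go below p = 0.0571, and no pair changed direction. All 14 pairs were called after normexp and after quantile normalization. In the exact permutation within same-numbered arrays, a pairing alternative chosen after seeing the data, 0 of 14 were called (0 at an unadjusted p under 0.05 as well), since it cannot go below p = 0.125.

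No scaling between arrays moved the median log2 difference of all probes to 0.12, from -0.09 in the scaled values, and the share of calls higher in V/SVZ to 58.7%, from 44.2%. Slc1a4 then differed by -0.21, the smallest value of any transporter. Without a filter 23861 of 39429 probes were called. Dim signals limit Slc17a7 in V/SVZ, Slc1a2 and the dimmer Slc1a5 probe, whose differences shrank after normexp, as did that of the brighter Slc1a5 probe (1.67, or 3.18-fold).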
